A study of Rattus norvegicus with 6 samples.

Results

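The insulin-like growth factor (IGF) family was examined in cultured mesenchymal stromal cells, which grow as adherent spindle-shaped cells from bone marrow and from blood. Its members were taken as all probe sets of the array whose platform gene symbol was Igf1, Igf2, Igf1r, Igf2r, Igfbp2, Igfbp3, Igfbp4, Igfbp5, Igfbp6 or Igfbp7. These were 19 of 15923 probe sets, for 10 genes. Cells came from 3 rats carrying a GFP transgene, named S4, S5 and S6, and each rat gave 1 culture of marrow origin and 1 of peripheral blood origin. All 6 cultures were grown in the same alpha-MEM medium with fetal bovine serum, glutamine, antibiotics and an antifungal, and RNA of passage 2 cells was measured on 1 Affymetrix RAE230A array per culture. Rats of both groups carried GFP, and strain, age, sex and the promoter of the transgene are not given in the labels. Mononuclear cells were taken from a density gradient and selected by adherence, with no sort by surface marker named.

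IGF1 and IGF2 are small secreted proteins that signal through the tyrosine kinase receptor IGF1R and promote survival and growth of mesenchymal cells and bone. IGF2R binds IGF2 without such a signal, carries it to lysosomes and also sorts lysosomal enzymes. The binding proteins IGFBP2 to IGFBP6 hold IGFs with high affinity outside the cell, where proteases set them free, while IGFBP7 binds IGFs only weakly and sits in the matrix of vessels and stroma. The comparison asked how these genes differed between blood and marrow cultures of the same animals.

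Only Igfbp7 passed the test. Igfbp7 was higher in blood than in marrow cultures in all 3 rats, with a mean difference of 1.28 ± 0.19 (SE) on the log2 scale. Igfbp2 had the widest mean difference of the family, but it was high in the blood cultures of rats S4 and S6 alone. Igf1, 1 probe set of Igf2, Igfbp3 and 1 probe set of Igfbp6 varied widely between cultures of the same group and did not pass. The receptors Igf1r and Igf2r showed small differences in opposite directions that kept their sign in all 3 rats and did not pass.

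Every difference is the blood value less the marrow value on the log2 scale, with the SE of the fit, and group levels are means ± SD (n = 3). The base of the deposited logarithm is not stated and was taken as 2 from the range of the values, so folds depend on that reading. A probe set was tested when its signal exceeded 8.18, the median of all values, on at least 3 of 6 arrays. Of the 19 family probe sets, 14 passed this filter and stood for 8 genes. The 5 below it were the only one of Igfbp2, all 3 of Igfbp5 and 1 of Igf2; their values come from a fit of all 15866 probe sets without a filter. The limma fit held the rat as a term, with Benjamini-Hochberg adjustment over all 8135 probe sets kept, and a probe set was called at an adjusted p under 0.05. In limma the variance of each probe set is moderated, that is, drawn toward a value shared by all probe sets fitted. As the rat is a term, p-values rest only in part on how the blood minus marrow difference varied over the 3 rats. With 1 culture per rat and source, rat, culture and array cannot be told apart in that variation. Of the 14 tested, 1 was called, higher in blood, and 13 were not, where 2.15% of all kept probe sets were called in either direction, 0.983% higher and 1.17% lower in blood. At an unadjusted p under 0.05, 6 of the 14 passed, 3 in each direction, against 14.1% of all kept probe sets, 6.56% higher and 7.55% lower. Over the 19 the median difference was -0.02 (-0.01 over all 15866) and the median absolute difference 0.42 (0.14 over all). The blood and marrow values did not overlap for 5 of the 19, 3 higher and 2 lower in blood, with a background of 16.4% (7.01% higher and 9.4% lower). Of the 14 tested these were 4, with a background of 18.5% (7.14% higher and 11.3% lower). The sign was the same in all 3 rats for 9 of the 19, with a background of 31.4%, and for 7 of the 14, with a background of 34.2%. Levels of different probe sets are not set against each other, because probes differ in how strongly they bind.

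**Figure D1:**
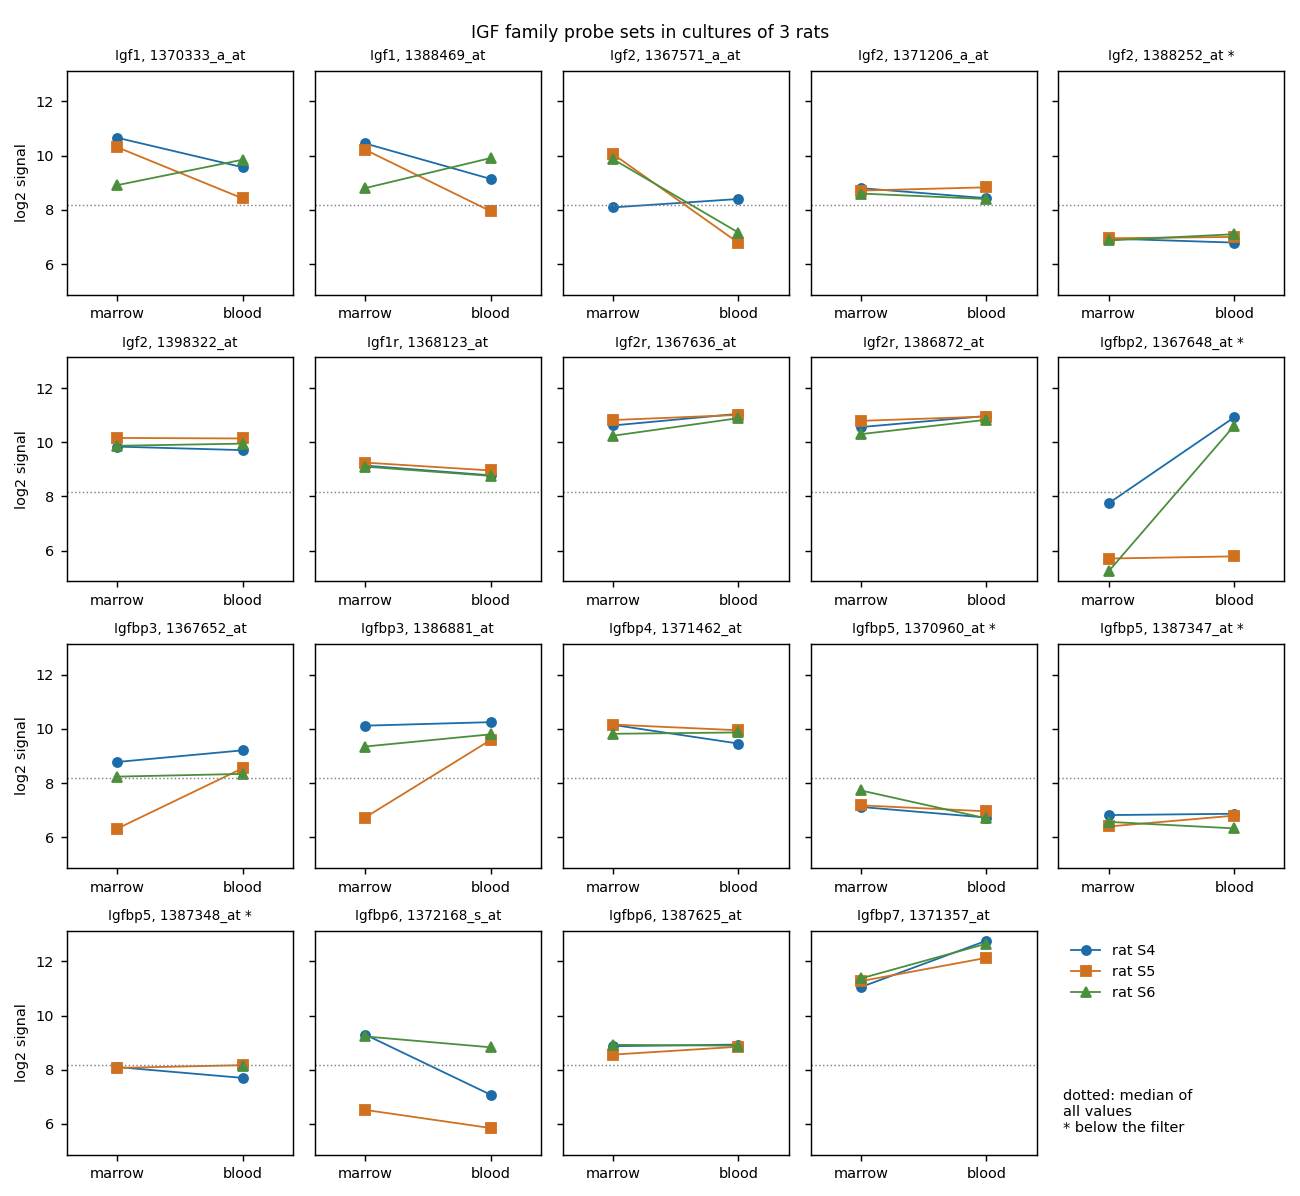
Log2 signal (vertical axis) of each of the 19 probe sets in marrow and blood cultures, with a line joining the 2 cultures of a rat; the dotted line is the median of all values, 8.18, and an asterisk marks the 5 probe sets below the filter. Igfbp7 rises in every rat from 11.05 to 11.37 in marrow to 12.13 to 12.76 in blood, while Igfbp2 climbs in rats S4 and S6 and goes from 5.71 to 5.79 in rat S5.

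The regions just before the annotated starts of Igfbp7, Igfbp2 and Igf2 are shown because these genes carried the call and the widest other differences. They are 250 bases long, from RefSeq on build GRCr8, 5′ to 3′ along the gene. Igfbp7 lies at chr14:31091486-31091735 on the plus strand, Igfbp2 at chr9:81864561-81864810 on the plus strand, and the 2 starts listed for Igf2 at chr1:207253981-207254230 and chr1:207250476-207250725 on the minus strand. Capitals mark the GC box, GGGCGG read on either strand.
Igfbp7: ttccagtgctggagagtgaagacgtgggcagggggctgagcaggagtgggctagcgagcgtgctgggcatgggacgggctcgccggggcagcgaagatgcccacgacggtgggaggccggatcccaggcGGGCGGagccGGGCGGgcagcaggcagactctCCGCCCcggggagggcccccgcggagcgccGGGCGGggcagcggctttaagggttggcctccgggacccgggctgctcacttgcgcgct
Igfbp2: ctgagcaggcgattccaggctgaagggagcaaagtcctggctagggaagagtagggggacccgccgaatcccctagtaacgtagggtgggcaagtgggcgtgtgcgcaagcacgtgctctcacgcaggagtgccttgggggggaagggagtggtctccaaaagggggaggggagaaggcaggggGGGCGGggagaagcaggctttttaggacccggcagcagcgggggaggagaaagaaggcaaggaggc
Igf2, start 1: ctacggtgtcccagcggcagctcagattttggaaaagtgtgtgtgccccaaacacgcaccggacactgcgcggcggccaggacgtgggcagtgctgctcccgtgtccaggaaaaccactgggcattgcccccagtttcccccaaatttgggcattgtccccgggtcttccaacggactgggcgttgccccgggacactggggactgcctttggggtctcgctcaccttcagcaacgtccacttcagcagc
Igf2, start 2: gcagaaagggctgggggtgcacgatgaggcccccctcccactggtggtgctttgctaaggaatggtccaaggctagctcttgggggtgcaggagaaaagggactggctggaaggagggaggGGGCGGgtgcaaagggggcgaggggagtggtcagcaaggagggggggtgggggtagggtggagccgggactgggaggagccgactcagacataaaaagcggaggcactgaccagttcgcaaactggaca

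The Igfbp7 window held 4 GC boxes, beginning 121, 111, 89 and 59 bases before the start. Windows with 4 or more made up 3.09% of the 33469 promoter windows in the table, and 30.5% held at least 1. The Igfbp2 window held 1, beginning 66 bases before the start, the second Igf2 window held 1 and the first held none. All 10 genes of the family matched the table, with 11 windows, of which 5 held a GC box. The TATA box letters TATAAA, on either strand, were found in the window of Igfbp4 alone, 40 bases before the start, against 12.9% of all windows. Igfbp7 also had 26 CG pairs in its window, at percentile 91.4 of all windows, and that of Igf1 had 3, at percentile 28.6. These matches describe the letters of the windows and no factor's binding was measured.

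Igf1 encodes the ligand that acts on both growth and survival. On probe set 1370333_a_at it stood at 10.66, 10.31 and 8.91 in marrow cultures of rats S4, S5 and S6, and at 9.57, 8.42 and 9.85 in their blood cultures. Signal was thus lower in blood in rats S4 and S5 and higher in rat S6, and the groups overlapped. The other probe set, 1388469_at, read 10.45, 10.22 and 8.80 in marrow and 9.14, 7.95 and 9.91 in blood, and followed the first over the 6 arrays (Pearson r = 0.98, a description). Mean differences of -0.68 ± 0.52 and -0.82 ± 0.61 did not pass (adjusted p = 0.684 and 0.674), and their 95% intervals ran from -1.97 to 0.61 and from -2.35 to 0.70. Without rat S6 they were -1.49 and -1.79 and still not called, at adjusted p = 0.146 and 0.123, and without rat S5 they were -0.08 and -0.10.

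Igf2, the fetal growth ligand expressed from the paternal allele, gave different readings on its 4 probe sets. Probe set 1367571_a_at, made from the RefSeq transcript NM_031511, stood at 8.09, 10.06 and 9.87 in marrow and at 8.40, 6.78 and 7.16 in blood cultures of rats S4, S5 and S6. The differences were 0.31, -3.28 and -2.71, so that blood was lower in rats S5 and S6 alone. The mean difference of -1.89 ± 0.68 did not pass (adjusted p = 0.294), and it was -3.0 without rat S4 (adjusted p = 0.173) and -1.2 without rat S5 (adjusted p = 0.477). The other 3 probe sets, all made from the sequence M17960, did not show this pattern. Probe set 1398322_at ranged from 9.71 to 10.16 over the 6 arrays, 1371206_a_at from 8.40 to 8.83 and 1388252_at, below the filter, from 6.79 to 7.10. Their differences were -0.02 ± 0.12, -0.15 ± 0.14 and 0.04 ± 0.14, and their 95% intervals lay within -0.51 to 0.41. Pearson correlations of 1367571_a_at with these 3 over 6 arrays were -0.04, 0.00 and -0.53. The reading of Igf2 thus depends on the probe set, and which of them measures the mature message was not tested.

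H19, the noncoding RNA that shares an imprinted region with Igf2, had differences of -2.32 in rat S4, -3.74 in rat S5 and -4.07 in rat S6. Its mean of -3.38 ± 0.34 was called (adjusted p = 0.0119), although not without a filter (0.0504), without rat S4 (0.152) or without rat S6 (0.0801). In rat S4 the H19 difference was the smallest of the 3, and probe set 1367571_a_at of Igf2 was not lower in blood there.

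Igf1r, the signalling receptor, was measured on 1 probe set, at 9.14, 9.25 and 9.10 in marrow and 8.78, 8.96 and 8.76 in blood cultures of rats S4, S5 and S6. Every blood value lay below every marrow value, and the 3 differences were close to each other, at -0.36, -0.29 and -0.34. The mean of -0.33 ± 0.11, a fold of 0.796 (95% interval 0.653 to 0.969), did not pass (adjusted p = 0.283).

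Igf2r, the receptor that clears IGF2, was measured by 2 probe sets built from the same sequence. On 1367636_at it stood at 10.62, 10.82 and 10.24 in marrow and 11.05, 11.01 and 10.89 in blood, so that every blood value was the higher. The differences were 0.43, 0.19 and 0.65 in rats S4, S5 and S6, with a mean of 0.42 ± 0.14 and an adjusted p of 0.255. Probe set 1386872_at gave 0.41, 0.16 and 0.53, with a mean of 0.37 ± 0.13 (adjusted p = 0.295). As both come from 1 source sequence they are not independent. With Igf2r counted once, 5 of 13 tested had an unadjusted p under 0.05 in limma (2 higher), against 14.1% of all kept probe sets (6.56% higher). Values did not overlap for 4 of 18 (2 higher), with a background of 16.4% (7.01% higher), and for 3 of the 13 tested, with 18.5%. The sign was the same in all 3 rats for 8 of 18 and for 6 of the 13 tested, with backgrounds of 31.4% and 34.2%. Other genes with more than 1 probe set, such as Igf1 and Igfbp3, were not merged. The 95% intervals of the 2 Igf2r probe sets ran from 0.08 to 0.77 and from 0.04 to 0.69.

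**Figure D2:**
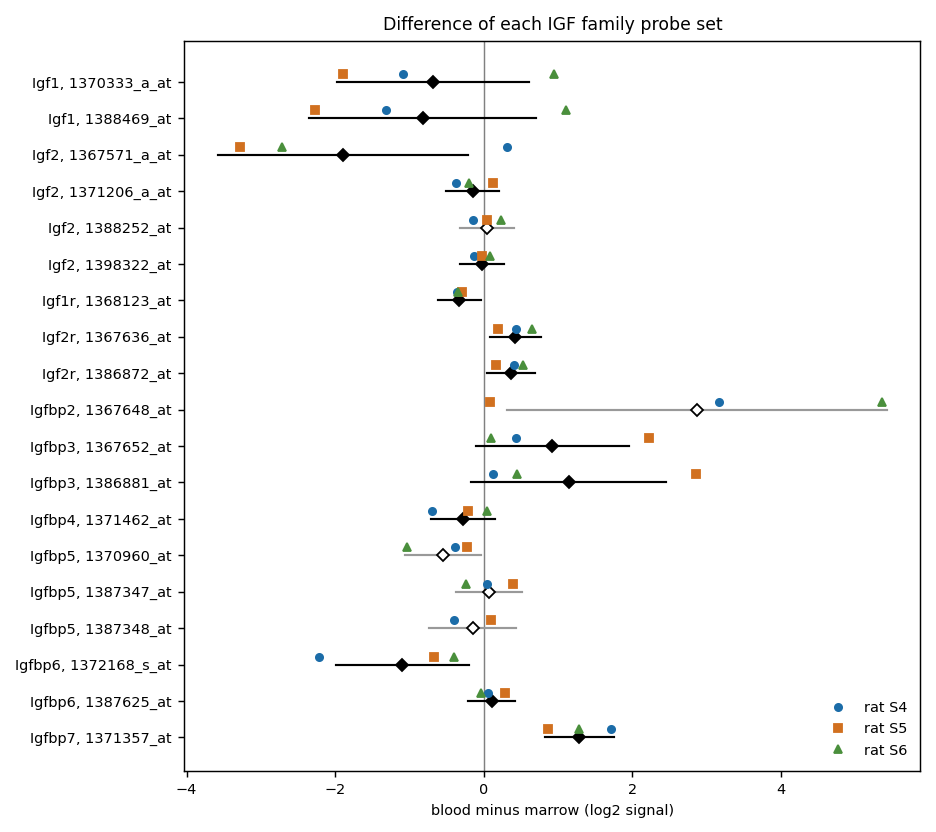
Blood minus marrow difference in log2 signal (horizontal axis) of each probe set, with the mean as a diamond, the 95% interval of the limma fit as a bar and the value of each rat as a coloured point; open diamonds and grey bars are probe sets below the filter. Igfbp7 is the only one called, at 1.28, and the points of Igf1, Igf2 (1367571_a_at), Igfbp2, Igfbp3 and Igfbp6 (1372168_s_at) lie far apart between rats.

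Igfbp7, the weak IGF binder of the matrix, stood at 11.05, 11.27 and 11.37 in marrow and 12.76, 12.13 and 12.65 in blood cultures of rats S4, S5 and S6. All blood values lay above all marrow values. The differences were 1.71, 0.86 and 1.28, and the mean of 1.28 ± 0.19 is a fold of 2.43 (95% interval 1.77 to 3.35). Its adjusted p was 0.038 in limma, and 97.3% of the kept probe sets had a smaller absolute difference. An exact sign-flip test over the 3 rats gave a two-sided p of 0.25, the smallest that 3 pairs allow. The call was lost without a filter (adjusted p = 0.116), after quantile normalization (0.0554), without rat S4 (0.338) and without rat S6 (0.23), while the difference stayed between 1.07 and 1.5.

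Igfbp2, which binds IGF2 strongly and is made by several mesenchymal progenitors, stood at 7.75, 5.71 and 5.24 in marrow and 10.92, 5.79 and 10.61 in blood cultures of rats S4, S5 and S6. The blood culture of rat S5 was near the marrow values, while those of rats S4 and S6 were far above the median of the table. The differences were 3.17, 0.08 and 5.37. With 2 of 6 arrays above the median it was not among the tested probe sets, and without a filter its mean of 2.87 ± 0.99 did not pass (adjusted p = 0.392, 95% interval 0.31 to 5.43). Without rat S5 the mean was 4.27 ± 0.55 (adjusted p = 0.0601) and without rat S6 it was 1.62 ± 0.83 (adjusted p = 0.793). Igfbp5, the neighbour of Igfbp2 in the RefSeq gene order, was below the median of the table in every culture with a value.

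Igfbp3, the main carrier of IGFs in serum, stood on 1386881_at at 10.12, 6.73 and 9.35 in marrow and 10.25, 9.59 and 9.80 in blood. The marrow culture of rat S5 was the only low one, and the other 5 arrays lay between 9.35 and 10.25. The second probe set, 1367652_at, showed the same low value, with 8.78, 6.32 and 8.24 in marrow and 9.21, 8.55 and 8.34 in blood (Pearson r = 0.98 over 6 arrays). Differences of 1.15 ± 0.53 and 0.92 ± 0.41 did not pass (adjusted p = 0.43 and 0.415), and without rat S5 they were 0.29 and 0.27.

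Igfbp6, which prefers IGF2, again depended on the probe set. On 1372168_s_at, whose suffix marks probes that can match more than 1 transcript, it stood at 9.30, 6.52 and 9.23 in marrow and 7.08, 5.85 and 8.83 in blood. It was lower in blood in each rat, by differences of -2.22, -0.67 and -0.40, and both cultures of rat S5 were low. The mean of -1.10 ± 0.36 did not pass (adjusted p = 0.254), and without rat S4 it was -0.54 (adjusted p = 0.484). Probe set 1387625_at, made from the RefSeq transcript, lay between 8.56 and 8.93 on all 6 arrays and differed by 0.11 ± 0.13.

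Igfbp4, a binding protein that restrains IGF action in bone cells, stood at 10.15, 10.16 and 9.82 in marrow and 9.46, 9.95 and 9.87 in blood. Its groups overlapped and the difference of -0.28 ± 0.17 did not pass (adjusted p = 0.577, 95% interval -0.71 to 0.15); without rats S4 and S6 in turn it was -0.08 and -0.45. Igfbp5, a binding protein stored in bone matrix, was measured by 3 probe sets, all below the filter. On 1370960_at it was at 7.12, 7.18 and 7.73 in marrow and 6.73, 6.96 and 6.70 in blood, without overlap, and the difference of -0.55 ± 0.20 did not pass (adjusted p = 0.419) and was -0.30 without rat S6. The other 2, 1387347_at and 1387348_at, differed by 0.07 ± 0.17 and -0.15 ± 0.21. The value of 1387348_at in the marrow culture of rat S6 was empty, and the fit of that probe set rests on rats S4 and S5.

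The spread over the 3 cultures of a group divided the family. With 1 culture per rat and source, rat and culture cannot be told apart in it. For 95% of all probe sets the SD over 3 cultures was at most 0.65 in marrow and 0.71 in blood. Igf1 on both probe sets, Igf2 on 1367571_a_at, Igfbp2 and Igfbp6 on 1372168_s_at exceeded these in both groups, and both Igfbp3 probe sets did so in marrow alone, with SDs of 1.78 and 1.29. Igfbp2 in blood, with an SD of 2.88, had the largest spread of the family. Each of the other 12 probe sets had an SD of at most 0.34 in either group. Among marrow cultures, the lowest was not the same for each gene. That of rat S6 was lowest for Igf1 and that of rat S4 for Igf2 on 1367571_a_at. That of rat S5 was lowest for Igfbp3 and for Igfbp6 on 1372168_s_at. Among blood cultures that of rat S5 was lowest for both Igf1 probe sets, Igf2 on 1367571_a_at, Igfbp2 and Igfbp6 on 1372168_s_at.

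**Figure D3:**
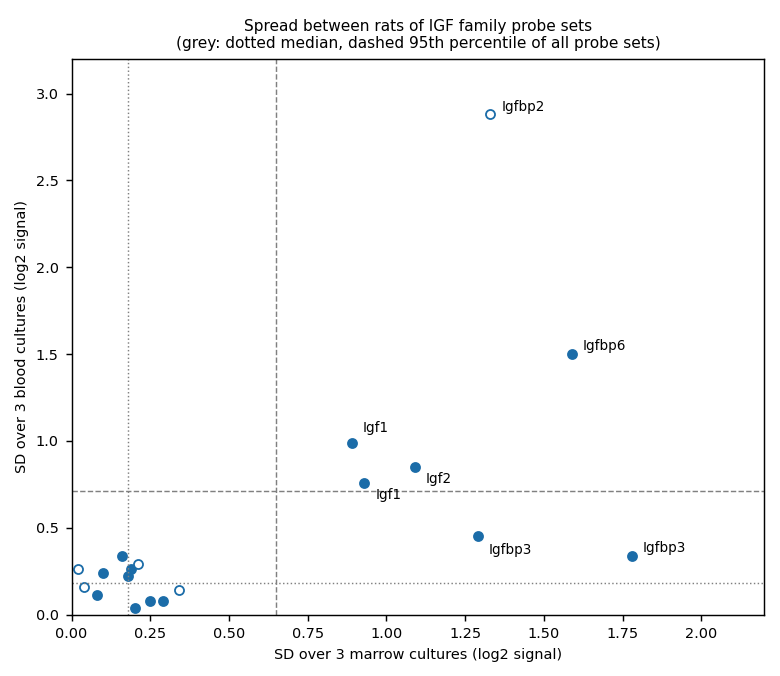
SD of log2 signal over the 3 marrow cultures (horizontal axis) against that over the 3 blood cultures (vertical axis) for the 19 probe sets; grey lines are the median, 0.18 in both groups, and the 95th percentile, 0.65 and 0.71, of 15791 probe sets with no empty value, and open circles are probe sets below the filter. Igfbp2 lies at 2.88 in blood, while 12 probe sets crowd at or below 0.34 in both groups.

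Other genes of the pathway were counted from lists, with 1 kept probe set per gene, the brightest. Over all 6110 genes measured, 2.03% were called, 0.867% higher and 1.16% lower in blood, and the median difference was -0.01. Of 10 measured receptor and adaptor genes, which include Igf1r and Igf2r, none was called and the median difference was -0.12. Ptpn1, a phosphatase that switches off insulin-type receptors, differed by -0.51 ± 0.16 (adjusted p = 0.243), and Grb10, an adaptor that restrains them, by -0.46 ± 0.17 (adjusted p = 0.318). None of 16 genes of the PI3K and mTOR arm was called, with a median of -0.02. In that arm Tsc1, a brake on mTOR, differed by -0.51 ± 0.13, the PI3K subunit gene Pik3r2 by -0.36 ± 0.11 and Eif4ebp1, a translation repressor that mTOR inactivates, by 0.34 ± 0.12, with adjusted p = 0.146, 0.247 and 0.282. None of 5 genes of the MAP kinase arm was called. Dusp6, an ERK phosphatase, differed by 0.51 ± 0.16 (adjusted p = 0.237). Dusp1, which acts on several MAP kinases, differed by -0.26 ± 0.12 (adjusted p = 0.459). Other kept probe sets differed by -0.46 for Pik3r2, by 0.59 and 0.65 for Dusp6 and by -0.54 for Dusp1.

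Among 15 measured IGFBP proteases, their inhibitors and IGFBP-related proteins, none rose, 2 fell and 13 were not called, with a median of -0.38. Stc1, a stanniocalcin related to Stc2, an inhibitor of the IGFBP4 protease PAPP-A, stood at 10.25 ± 0.31 in marrow and 8.11 ± 0.91 in blood. Its differences were -2.51, -1.44 and -2.48 in rats S4, S5 and S6, with a mean of -2.14 ± 0.24 (adjusted p = 0.0162). Mmp3, a matrix protease that can cut IGFBP3, fell from 11.65 ± 1.51 to 7.78 ± 1.65, by differences of -5.46, -2.87 and -3.28 (adjusted p = 0.0245). Plat, the tissue plasminogen activator, differed by 1.26 ± 0.23 and was not called (adjusted p = 0.0671), but it was called higher in blood with no rat term (0.0459), without rat S5 (0.0099) and with a filter asking for signal on all 3 arrays of a group (0.0444). Stc1 and Mmp3 were not called after scaling to a common trimmed mean (adjusted p = 0.0514 and 0.0698), and also not without a filter, after quantile normalization, without the rat in the fit, with the fluidics station in its place or without rat S4 or S6. Of 3 measured genes in the list of Igf2 mRNA-binding proteins and imprinted partners, H19 fell as given above, while Cdkn1c, a cell cycle inhibitor, and Meg3, a noncoding RNA, were not called, at -0.80 ± 0.50 and -0.02 ± 0.13. None of 11 genes of lysosomal proteins that IGF2R can sort was called, with a median of 0.09. Glb1, the lysosomal beta-galactosidase, differed by 0.46 ± 0.20 and Ctss, cathepsin S, by 0.51 ± 0.27 (adjusted p = 0.402 and 0.499).

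**Figure D4:**
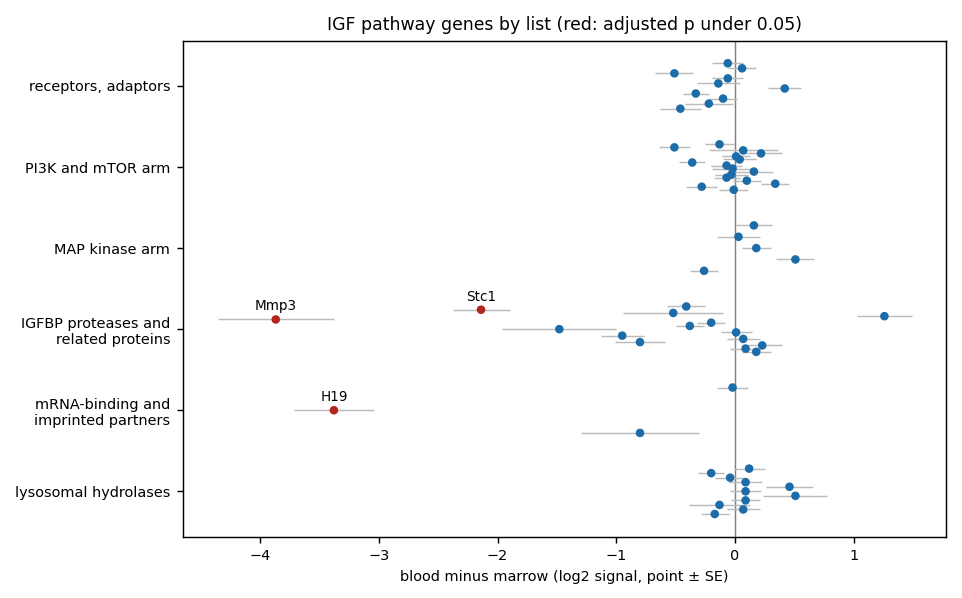
Blood minus marrow difference in log2 signal (horizontal axis, point ± SE of the limma fit) of each measured gene in 6 lists of IGF pathway genes, with called genes in red. Mmp3, Stc1 and H19, at -3.87, -2.14 and -3.38, are the 3 called genes, and the receptor, PI3K and MAP kinase lists hold no called gene.

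The cultures carried the markers of stromal cells, with 10 of 11 above the median of the table on all blood arrays and 10 of 11 on all marrow arrays. Their summed linear signal was 33418 to 40372 in marrow and 38336 to 40792 in blood. Blood exceeded marrow in this sum by 0.12, 0.2 and 0.01 on the log2 scale in rats S4, S5 and S6. Thy1, the exception in blood, stood at 7.95 ± 1.29 there and at 8.97 ± 1.14 in marrow. Its differences were -2.36, 1.74 and -2.43 in these rats, and it was not called in limma (adjusted p = 0.715). Another kept probe set of Thy1 had a mean difference of -1.38. Of the 11, Eng, a co-receptor for TGF-beta, was called higher in blood, by 1.62 ± 0.23 (adjusted p = 0.038), with differences of 2.27, 1.11 and 1.47 in rats S4, S5 and S6. That call was lost without a filter (0.116), after trimmed-mean scaling (0.0553) or quantile normalization (0.0556), with no rat term (0.0519), without rat S4 (0.284) and without rat S6 (0.195). Pdgfra, a growth factor receptor, differed by -1.93 ± 0.35 and Nt5e, the surface enzyme CD73, by 0.77 ± 0.15, and neither was called (adjusted p = 0.0681 and 0.0862). Macrophage and leukocyte genes were also present and none was called, with 11 of 17 above it on all arrays of each group, while Ptprc, Itgam, C1qa, Cd74 and Coro1a were below it on all 6 arrays and none was at 0. The sum of this list ran from 10226 to 20338 in marrow cultures and from 16369 to 20838 in blood cultures, and blood exceeded marrow by 1.03, 0.02 and -0.01 on the log2 scale in rats S4, S5 and S6. The Igfbp7 differences in these rats were 1.71, 0.86 and 1.28, and those of Igf1 on 1370333_a_at -1.09, -1.89 and 0.94; the part of leukocyte RNA in either was not tested. Of 7 smooth muscle and pericyte genes, Acta2 and Tagln were above the median on all arrays and the other 5 on none. Neither Acta2 nor Tagln was called in limma (adjusted p = 0.286 and 0.131). The sum of the 7 genes ran from 2663 to 3043 in marrow cultures and from 3459 to 5283 in blood cultures. Blood exceeded marrow in that sum by 0.73, 0.18 and 0.91 on the log2 scale in rats S4, S5 and S6. All 7 endothelial genes were below the median on all 6 arrays, with sums of 727 to 909 in marrow and 774 to 866 in blood. Of 5 mesothelial genes, Krt8, Krt18 and Krt19 were below it on all 6 arrays. The other two were both called: Msln, a surface protein, differed by -1.24 ± 0.11 (adjusted p = 0.00911), and Wt1, a transcription factor, by 3.83 ± 0.19 on 1377223_at (adjusted p = 0.0026). A second Wt1 probe set, 1369695_at, lay below the filter and read 6.82 to 7.02 in marrow and 7.26 to 7.45 in blood. Without rat S4 neither Wt1 nor Msln was called (adjusted p = 0.152 and 0.189), and Msln was also not called without rat S6 (0.1) or with no rat term (0.114). The mesothelial sum depended on which probe set stood for Wt1, with 1095 to 1681 in marrow and 820 to 984 in blood with 1369695_at, and 999 to 1600 and 1179 to 1381 with 1377223_at. What part any of these markers had in the Igfbp7 result was not tested. In RNA of whole cultures, fewer cells of a type and less RNA per cell cannot be told apart.

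The genes most like Igfbp7 over the 6 arrays, out of 6892 probe sets of other genes, were Prdx6, an antioxidant enzyme, Akap7, an anchor of protein kinase A, and RT1-DMb, an antigen-loading gene, with Pearson r of 0.997, 0.997 and 0.996. Among these probe sets, 85 had r above 0.95, and arrays compared this way share the difference between the groups. For Igfbp6 on 1372168_s_at, the probe set with the smallest p among those lower in blood, the nearest were Polr2e, an RNA polymerase subunit, Dkk3, a secreted protein of the Dickkopf family, and Adamtsl4, a matrix protein, with r of 0.982, 0.981 and 0.974. The nearest to Igfbp2, looked up after its values were seen, were R3hdm1, Agpat2, a lipid synthesis enzyme, and Papss2, a sulfate donor enzyme, with r of 0.984, 0.983 and 0.975. Papss2 read 10.35, 10.10 and 10.20 in marrow cultures of rats S4, S5 and S6, and 11.03, 10.06 and 10.92 in their blood cultures. As Papss2 was picked for likeness to Igfbp2, its higher blood values in rats S4 and S6 than in rat S5 follow from the choice.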

How the data were processed

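The authors deposited 1 table of log2 signals for 6 arrays, with 15923 probe sets and array medians of 8.12 to 8.22. GCOS is the only tool in the submitters' processing notes; how probes were summarised and normalized is not given in the sources used here, and the log base was read from the values. Of all cells 86 were empty and 94 exactly 0, and none was filled in. No array pair was near identical (SD of the difference at least 0.399).

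Values were used as deposited. After removing 57 control probe sets, those above the table's median on at least 3 of 6 arrays were kept. Limma 3.58.1 in R 4.3.3 (lmFit, eBayes, two-sided, Benjamini-Hochberg) was fitted with the rat as a term, since the series' design text pairs the cultures by animal; after subtraction of group means, the 2 arrays of a rat correlated at -0.29, 0.30 and 0.33 (S4, S5, S6). SEs are moderated. The fit was tested on simulated data. Rats S4 and S5 were run on one fluidics station and S6 on another, and no station module held both groups, so module and group cannot be told apart. Members, lists and tests were chosen with earlier results of these data known. Pathway lists name their called genes and up to 3 with the smallest p, leaving out Igf1r and Igf2r in the receptor list. Marker lists name those called and, with no fixed rule, some that were not called. Alternatives changed the filter, scaling, block, variance prior, station, rats used and choice of probe set. Arrays limit the precision by their number, 6.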

Additional observations from a re-analysis of the deposited data

How the results depend on the processing

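The 18 family probe sets other than Igfbp7 stayed uncalled under each alternative run on them. Of 8135 probe sets 175 were called, against 82 without a filter (42 higher, 40 lower), 104 after scaling to a common trimmed mean (55 higher, 49 lower), 108 after quantile normalization (58 higher, 50 lower) and 0 to 406 when 1 rat was left out. With 0 calls in limma, without rat S4, 770 had an unadjusted p under 0.05. Family calls fell from 1 to 0 without a filter, where 8 of 19 had an unadjusted p under 0.05, and after quantile normalization, where 5 of 14 had, and were 0 to 1 when 1 rat was left out. The Igfbp7 difference lost its call at 1.28 without a filter and at 1.27 after quantile normalization, and was 1.07 to 1.5 when 1 rat was left out, with adjusted p of 0.00738 to 0.338 over the alternatives. It was called with no replicate block (no pairing by rat), at 1.28 with an adjusted p of 0.0304, and the count of calls was then 130. The list of IGFBP proteases had 2 calls, against 0 without a filter, after either scaling and with the fluidics station in place of the rat, 1 with no replicate block (Plat, higher in blood, while Stc1 and Mmp3 lost their calls) and 0 to 3 when 1 rat was left out. The imprinted list had 1 call, against 0 without a filter and 0 to 2 when 1 rat was left out. Differences near 0 changed sign when 1 rat was left out. Igf2 ran from -0.05 to 0.14 on 1388252_at and from -0.07 to 0.03 on 1398322_at. Igfbp5 ran from -0.09 to 0.23 on 1387347_at and from -0.40 to 0.10 on 1387348_at. As 1387348_at had no marrow value in rat S6, its -0.40 and 0.10 rest on 1 rat each, S4 and S5. With the kept probe set of Wt1, chosen after seeing the data, the mean log2 difference of the mesothelial sum went from -0.63 to -0.03. The causes were not tested. Leaving out a rat also leaves fewer samples. The count of calls was 0 without rat S4, 406 without rat S5 and 44 without rat S6. No detection calls were used, so no background level is known for dim probe sets.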

Other observations

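Igfbp1, a binding protein made mainly by liver and the neighbour of Igfbp3 in the RefSeq gene order, was outside the set of genes described. Its 1 probe set was below the median of the table on all 6 arrays. It stood at 6.19, 6.39 and 6.50 in blood and at 5.85, 6.09 and 5.85 in marrow cultures of rats S4, S5 and S6, without overlap. The difference of 0.43 ± 0.14 did not pass in limma without a filter (adjusted p = 0.369).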
